A study of Sus scrofa with 6 samples.

Results

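Nuclear receptors are transcription factors, most of which bind a lipid-soluble ligand such as a hormone, a vitamin derivative or a sterol. Many bind DNA as a pair with an RXR, some act alone or as a pair of the same receptor, and some have no known natural ligand. In cartilage, retinoic acid, thyroid hormone, vitamin D and glucocorticoid receptors are known for their part in chondrocyte maturation and matrix production. The genes described are 40 nuclear receptors outside the PPAR and RXR groups, taken by name from a list of the family. They were found by the symbol of the model identifier (32 receptors) or by the protein name in the deposited annotation (5 receptors), and 37 of the 40 had a gene model among 19670 in all. A further 2 models carry the protein names of ESR1 and NR6A1, which already had a model by symbol, and were not counted. THRA, HNF4G and NR2E3 were matched to no model and were not analysed here. The receptor of the drug, PPARD, is not among them, so the question is what the rest of the family did when PPARD was activated.

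RNA was sequenced from primary cells of pig external ear cartilage, isolated by digestion with enzymes. A single animal gave all of them: 1 pig of 4 months whose PPARD was wild-type, bred as Duroc × (Landrace × Large White). Both groups were kept for 24 h, one with GW0742, a synthetic agonist of PPARD, and the other with DMSO, its solvent, with 3 libraries each. The series title concerns PPARD as an inhibitor of cartilage growth in the external ear. The labels do not say that the libraries of a group came from separate cultures, so a p-value covers the spread from library to library, possibly technical, and no statement on other animals follows.

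The libraries held between 13133912 and 16913761 estimated reads. The 10 chondrocyte markers were unequal in level. RPKM, by definition the read count per model length and depth, is given as the authors deposited it. For some models, such as those of ESR1 and NR3C2, the deposited RPKM did not follow the listed reads and length. COL2A1 was at 104.5 to 119 RPKM, ACAN at 72.5 to 112 RPKM and SOX9 at 8.49 to 10.16 RPKM. COL11A1, COMP, CHAD and FMOD were at 22.2 RPKM or more in every library. Scarce markers were COL9A1 at 0.32 to 0.61 RPKM, MATN3 at 1.05 to 1.57 RPKM and HAPLN1 at 1.36 to 2.37 RPKM. Fibroblast markers were far more abundant, at a summed 51380 to 62050 CPM (reads scaled by library depth only) against 6205 to 6834 CPM for the 10 chondrocyte markers, scales that take no account of model length. FMOD alone gave 4228 to 4393 CPM of the chondrocyte sum, and COL1A2 alone 32630 to 42040 CPM of the fibroblast sum. As a check of the agonist, 4 of 8 tested PPAR targets, ANGPTL4, PDK4, CPT1A and CAT, rose at an adjusted p under 0.05 in edgeR.

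RARG, NR1H2 and RARA were the dominant receptors of these cells. Together they held 62.6% to 65.7% of the summed RPKM of the 37 receptors in each library. With DMSO, 7 receptors averaged over 10 RPKM, 11 lay between 1 and 10 RPKM, and 19 were under 1 RPKM. The summed RPKM of the family was 326, 306.5 and 324 in the DMSO libraries and 320, 311 and 319 in the GW0742 libraries, so the groups overlapped. In bulk RNA, fewer cells with a receptor and less of its RNA per cell cannot be told apart.

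**Figure D1:**
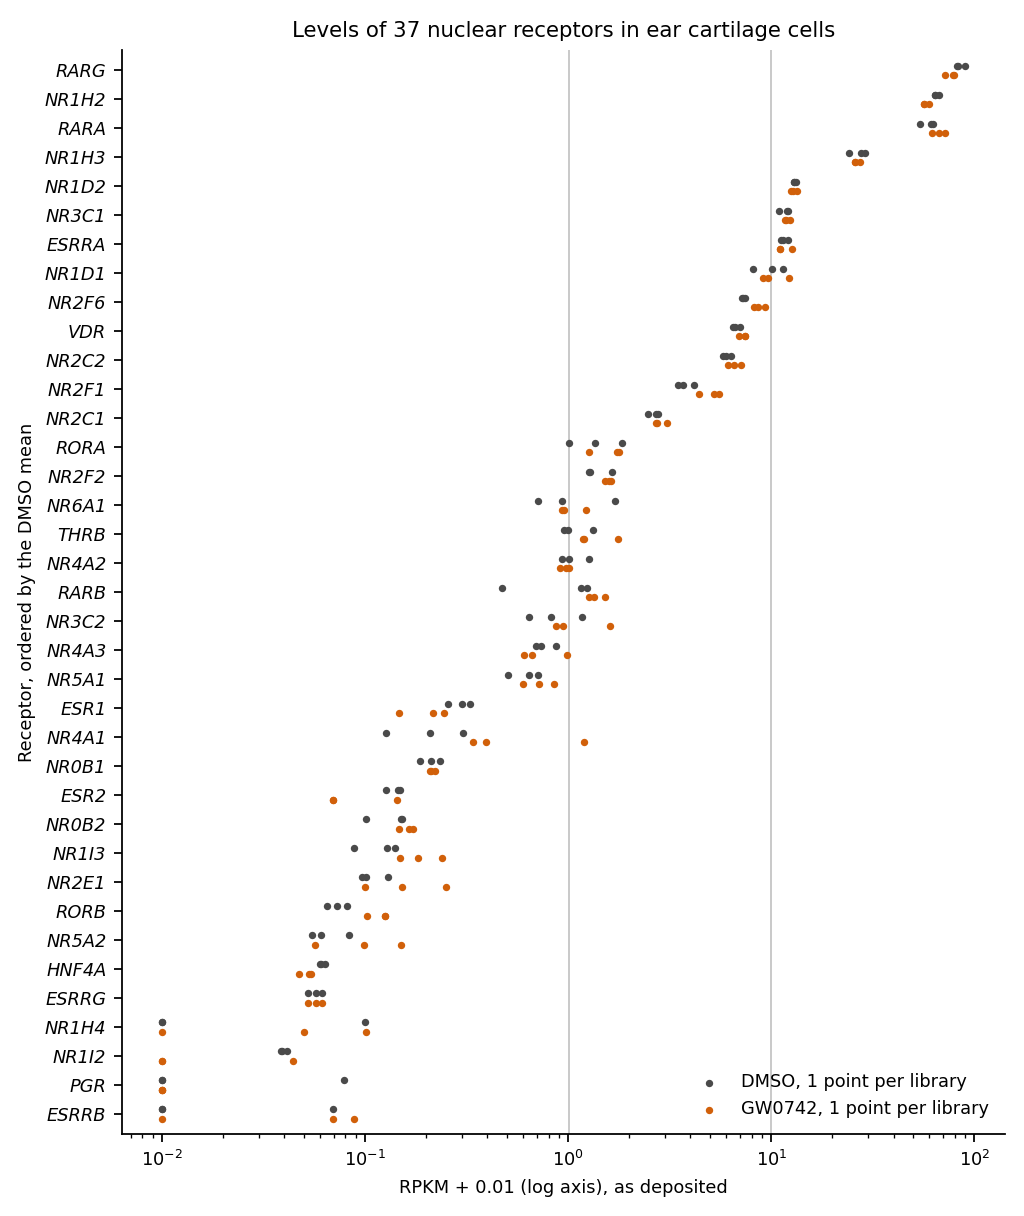
RPKM of each of the 37 receptors with a model, on a log axis after adding 0.01, with 1 point per library (grey DMSO, orange GW0742, 3 libraries each) and receptors ordered by the DMSO mean. RARG, NR1H2 and RARA stand highest, grey lines mark 1 and 10 RPKM, and points at the far left are libraries in which a receptor is listed at 0.

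None of the 22 receptors deep enough to test changed past the threshold with GW0742. The test was the quasi-likelihood F-test of edgeR on the estimated reads, with p-values adjusted over all 14146 tested models, of which 0.262% passed an adjusted p of 0.05 in either direction. The smallest adjusted p of a receptor was 0.169, for NR1H2. DESeq2, which called 2.91% of the models it gave an adjusted p, called 0 of the 22 receptors with such a p, the smallest being 0.133. At an unadjusted p under 0.05, 2 of the 22 were higher with GW0742 (NR2F1 and NR2F6) against 7.93% of all tested models, and 2 were lower (NR1H2 and RARG) against 8.91% of all. Those shares are near the background and say nothing particular about the family. The median log2 fold change of the tested receptors was 0.05, against -0.00 over all tested models, with 13 above 0 and 9 below.

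How large a change could have been missed is given by the intervals. For 13 of the 22 the 95% interval of the fold change lay within 1.5-fold in either direction, as it did for 62.0% of all tested models. These include each of the 7 receptors over 10 RPKM with DMSO. For the other 9 the interval reached past 1.5-fold, and for ESR1, the least abundant, it ran from 0.336-fold to 1.12-fold.

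**Figure D2:**
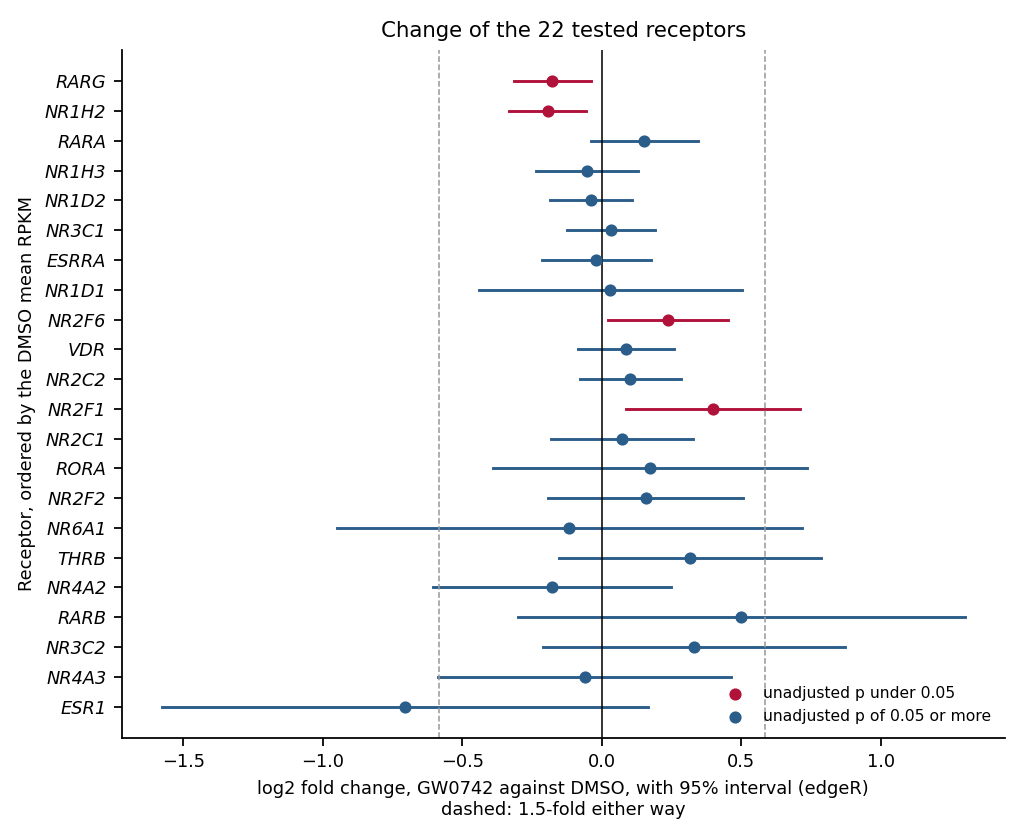
Log2 fold change of GW0742 against DMSO for the 22 tested receptors, ordered by their DMSO mean RPKM, with the 95% interval from edgeR as a line and dashed lines at 1.5-fold. Intervals are narrow for abundant receptors such as NR1D2 and wide for ESR1 and RARB. The 4 receptors in red had an unadjusted p under 0.05 and none passed after adjustment.

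Retinoic acid receptors were the most abundant class. They bind all-trans retinoic acid, pair with RXR, and hold their target genes down when no ligand is bound. RARG, the form best known from skin and cartilage, stood at 89.5, 81.7 and 83.0 RPKM in the DMSO libraries and 78.2, 79.0 and 71.6 RPKM in the GW0742 libraries. All GW0742 libraries lay below all DMSO libraries, by a log2 fold change of -0.18 ± 0.06 (SE, edgeR, unadjusted p = 0.0179, adjusted p = 0.200), which is 11.6% less. RARA, the widely expressed form, was at 60.9, 54.1 and 62.6 RPKM with DMSO and 67.1, 61.7 and 71.9 RPKM with GW0742. Its groups overlapped, with a log2 fold change of 0.15 ± 0.08 (edgeR adjusted p = 0.403) and an interval from 0.972-fold to 1.27-fold.

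The ratio of RARA to RARG, computed from RPKM and chosen after the values were seen, was 0.680, 0.662 and 0.754 with DMSO and 0.858, 0.781 and 1.00 with GW0742. It is given as a description with no test. RARB, itself a retinoic acid target gene, was far scarcer, and its values rest on 7 to 27 reads per library. It stood at 1.23, 0.464 and 1.14 RPKM with DMSO and 1.34, 1.25 and 1.51 RPKM with GW0742. The groups did not overlap, but the difference (log2 0.50 ± 0.35, edgeR adjusted p = 0.513) rests mainly on DMSO replicate 2, and without that library it was 0.19 ± 0.25 (adjusted p = 0.743).

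THRB, a receptor of thyroid hormone, stood at 0.993, 1.32 and 0.941 RPKM with DMSO and 1.17, 1.75 and 1.18 RPKM with GW0742. DMSO replicate 2 lay above the lower GW0742 libraries, so the groups overlapped (log2 0.32 ± 0.21, edgeR adjusted p = 0.477). THRA, the other thyroid hormone receptor, was matched to no model.

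Of the liver X receptors, which sense oxysterols and drive cholesterol export, the broadly expressed form NR1H2 (LXR beta) was the second most abundant receptor with DMSO. Its libraries read 63.7, 63.8 and 66.8 RPKM with DMSO and 59.9, 56.6 and 56.3 RPKM with GW0742. The groups did not overlap, and the log2 fold change was -0.19 ± 0.06 (edgeR unadjusted p = 0.0111, adjusted p = 0.169), or 12.6% less. NR1H3 (LXR alpha), best known from liver, fat and macrophages, was at 29.1, 24.2 and 27.5 RPKM with DMSO and 25.8, 25.9 and 27.5 RPKM with GW0742. The GW0742 libraries fell inside the DMSO range (log2 -0.05 ± 0.08, adjusted p = 0.780), and NR1H3 made 0.379 to 0.488 of the NR1H2 level per library.

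**Figure D3:**
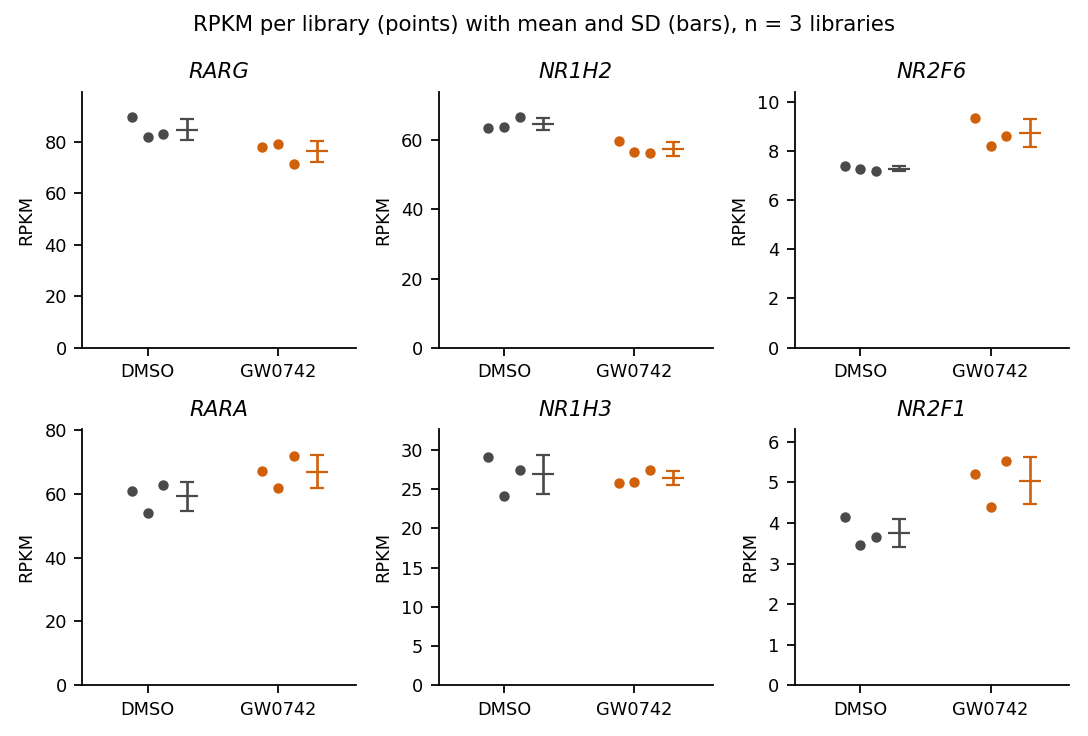
RPKM per library of 3 pairs of related receptors (upper row RARG, NR1H2 and NR2F6; lower row RARA, NR1H3 and NR2F1) with DMSO (grey) and GW0742 (orange), each axis from 0; crossed bars give the mean and SD of 3 libraries. The groups lie apart for RARG, NR1H2, NR2F6 and NR2F1 and overlap for RARA and NR1H3, and the separated receptors differ by 11.6% (RARG) to 31.8% (NR2F1).

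The vitamin D receptor VDR, which pairs with RXR and controls calcium handling, was moderate and steady. It stood at 6.50, 7.01 and 6.64 RPKM with DMSO and 6.96, 7.42 and 7.38 RPKM with GW0742, where DMSO replicate 2 lay above GW0742 replicate 1 (log2 0.09 ± 0.08, edgeR adjusted p = 0.599). The bile acid receptor NR1H4 (FXR) and the xenobiotic receptors NR1I2 (PXR) and NR1I3 (CAR), all best known from liver, were scarcely detected. NR1H4 had 0 to 2 reads per library and NR1I2 also 0 to 2. NR1I3 had 2, 2 and 3 reads with DMSO and 3, 5 and 4 with GW0742.

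Among receptors of the circadian clock, NR1D2 (REV-ERB beta), a repressor that binds haem, was the steadiest of all the receptors. It ranged from 12.5 to 13.4 RPKM over the 6 libraries, the highest being 1.07 times the lowest. Its DMSO libraries read 12.9, 13.3 and 12.9 RPKM and its GW0742 libraries 13.4, 12.7 and 12.5 RPKM (log2 -0.04 ± 0.06, edgeR adjusted p = 0.801). The interval, from 0.879-fold to 1.08-fold, was narrow.

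NR1D1 (REV-ERB alpha), its partner in repression, was represented by a model of only 414 bases with 48 to 83 reads per library. It was at 10.03, 8.13 and 11.4 RPKM with DMSO and 9.61, 9.06 and 12.2 RPKM with GW0742 (log2 0.03 ± 0.21, adjusted p = 0.960). In RefSeq (assembly Sscrofa11.1, another build than the files) NR1D1 overlaps THRA, and the pair is known to lie on opposite strands. The protocols name no strand-marking step. Without one, reads of either gene in a shared part could not be told apart. Whether the model of 414 bases lies in such a part was not checked. RORA, an activator at the same DNA sites, was at 1.00, 1.83 and 1.35 RPKM with DMSO and 1.26, 1.74 and 1.77 RPKM with GW0742, with overlapping groups (log2 0.17 ± 0.25, adjusted p = 0.767). RORB, known from brain and retina, had 1 to 3 reads in any library.

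The same assembly places THRB directly between RARB and NR1D2 in the order of protein-coding genes. These neighbours had unequal levels, with NR1D2 at 12.9 to 13.3 RPKM, THRB at 0.941 to 1.32 RPKM and RARB at 0.464 to 1.23 RPKM in the DMSO libraries. NR5A1 and NR6A1 are also adjacent, both near or under 1 RPKM with DMSO.

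COUP transcription factors and the testicular receptors, orphan receptors without an established natural ligand, made up 5 of the 11 receptors between 1 and 10 RPKM with DMSO. NR2F6, which mostly acts as a repressor, read 7.38, 7.26 and 7.19 RPKM with DMSO and 9.35, 8.21 and 8.60 RPKM with GW0742. All GW0742 libraries were higher (log2 0.24 ± 0.09, edgeR unadjusted p = 0.0347, adjusted p = 0.259). NR2F1 (COUP-TFI), a regulator of neural crest and nervous system development, read 4.15, 3.46 and 3.67 RPKM with DMSO and 5.21, 4.39 and 5.53 RPKM with GW0742. It too was higher in all GW0742 libraries, by 31.8% (log2 0.40 ± 0.14, unadjusted p = 0.0182, adjusted p = 0.200), with an interval from 1.06-fold to 1.64-fold.

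NR2F2 (COUP-TFII), known from veins and mesenchyme, was at 1.64, 1.26 and 1.27 RPKM with DMSO and 1.501, 1.61 and 1.58 RPKM with GW0742, where the highest library was a DMSO one (log2 0.16 ± 0.15, edgeR adjusted p = 0.648). NR2C2 (TR4) stood at 5.99, 6.30 and 5.78 RPKM with DMSO and 6.10, 7.05 and 6.55 RPKM with GW0742 (log2 0.10 ± 0.08, adjusted p = 0.557). NR2C1 (TR2), with which NR2C2 pairs, stood at 2.71, 2.77 and 2.47 RPKM and 2.74, 3.05 and 2.69 RPKM (log2 0.07 ± 0.11, adjusted p = 0.785). The groups overlapped for both, and NR2C1 kept a ratio to NR2C2 between 0.410 and 0.452 in the 6 libraries. HNF4A, which defines liver and gut epithelium, had 3 to 5 reads and NR2E1 (TLX), a receptor of neural stem cells, 3 to 11 reads per library.

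Among steroid receptors, the glucocorticoid receptor NR3C1 was the 1 clearly present. It was at 12.0, 10.9 and 12.1 RPKM with DMSO and 11.9, 12.4 and 11.7 RPKM with GW0742, with overlapping groups (log2 0.03 ± 0.07, edgeR adjusted p = 0.847, interval 0.918-fold to 1.14-fold). A second model of 351 bases, annotated as a variant of this receptor and outside the naming rule, behaved otherwise and was chosen after its values were seen. ENSSSCG00000008436 had 70, 5 and 31 reads with DMSO and 13, 0 and 7 reads with GW0742. The groups overlapped and DMSO replicate 1 alone held 70 of its 126 reads (log2 -2.22 ± 0.94, edgeR adjusted p = 0.280). Reads of near-identical models can be split by an estimate, so this model's values are uncertain.

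The mineralocorticoid receptor NR3C2, which binds aldosterone and cortisol, was split over 4 models, of which ENSSSCG00000024987 held the most reads and was tested. It had 19, 18 and 18 reads with DMSO and 19, 22 and 25 reads with GW0742. Scaled to library size the groups did not overlap (log2 0.33 ± 0.24, edgeR adjusted p = 0.521), whereas its RPKM values, 0.817, 1.16 and 0.628 against 0.930, 0.858 and 1.597, did. DMSO replicates 2 and 3, with 18 reads each, differed in RPKM by more than their depths do. How the deposited RPKM of this model was derived was not tested. With the 4 models summed the log2 fold change was 0.58 (adjusted p = 0.315). Another of the 4, ENSSSCG00000009026, had 0, 4 and 0 reads with DMSO and 10, 6 and 15 with GW0742, too few to be tested. The oestrogen receptor ESR1 had 12, 16 and 15 reads with DMSO and 8, 5 and 12 with GW0742 (log2 -0.71 ± 0.38, edgeR adjusted p = 0.393). Its groups overlapped in CPM, but in RPKM all GW0742 libraries were lower. These RPKM values were 0.246, 0.319 and 0.291 with DMSO against 0.205, 0.137 and 0.233 with GW0742. ESR2 had 1 to 4 reads per library. The progesterone receptor PGR had 4 reads in DMSO replicate 2 and none in the other 5 libraries.

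The oestrogen-related receptor ESRRA, which drives mitochondrial genes together with PGC-1 coactivators, was at 11.2, 12.0 and 11.5 RPKM with DMSO and 12.7, 11.04 and 11.03 RPKM with GW0742. The GW0742 libraries lay on both sides of the DMSO range (log2 -0.02 ± 0.09, edgeR adjusted p = 0.933). ESRRB and ESRRG had 0 to 3 reads per library.

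NR4A receptors are immediate early genes, induced soon after many stimuli and active without a ligand. NR4A2 was at 1.00, 0.920 and 1.26 RPKM with DMSO and 0.907, 0.960 and 1.00 RPKM with GW0742 (log2 -0.18 ± 0.19, edgeR adjusted p = 0.671). NR4A3 ranged from 0.596 to 0.974 RPKM with overlapping groups (log2 -0.06 ± 0.23, adjusted p = 0.936). NR4A1 fell under the minimum for testing, with 4, 2 and 6 reads with DMSO and 5, 7 and 20 with GW0742. Scaled to library size its groups did not overlap, and GW0742 replicate 3 held 20 of its 44 reads.

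The steroidogenic receptors NR5A1 and NR5A2 and the atypical receptors NR0B1 and NR0B2, which lack a DNA-binding domain, were at 2 to 9 reads per library. NR6A1 (GCNF), a repressor best known from germ cells and embryos, varied 2.42-fold between its lowest and highest library. It read 0.699, 1.69 and 0.926 RPKM with DMSO and 0.945, 0.918 and 1.21 RPKM with GW0742. DMSO replicate 2 was the highest library, and its omission turned the log2 fold change from -0.12 ± 0.37 to 0.31 ± 0.31 (edgeR adjusted p = 0.907 and 0.646).

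In all, groups did not overlap in CPM for 4 tested receptors that were higher with GW0742 (NR2F6, NR2F1, RARB and NR3C2). Over all tested models that share was 11.4%. For 2 that were lower (RARG and NR1H2) the share over all models was 12.1%. The other 16 overlapped in CPM. Of the 15 receptors with a model that were too scarce to test, 6 were at or under 3 reads in every library, the level taken as the floor (0.177 to 0.228 CPM), and 4 had no read in at least 1 library. A count of 0 there allows up to 3 reads and does not show that the RNA is absent.

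The order of levels was much the same in both groups. With DMSO, RARG, NR1H2, RARA, NR1H3 and NR1D2 came in that order with no overlap between neighbours. NR3C1, ESRRA and NR1D1 followed with overlapping ranges, so their order is not set beyond their spread. NR1D1 holds that place per length only. Its model of 414 bases averaged 4.36 CPM over the 6 libraries, against 40.4 CPM for NR3C1 and 46.5 CPM for ESRRA. NR2F6, VDR, NR2C2, NR2F1 and NR2C1 came next, each apart from the one after it, and NR2C1 was apart from the group of RORA, NR2F2, NR6A1, THRB, NR4A2, RARB, NR3C2, NR4A3 and NR5A1, in which neighbours overlapped. With GW0742 the same 15 receptors filled the first 15 ranks in the same order, except that RARA (66.9 ± 5.1 RPKM, SD, n = 3) stood above NR1H2 (57.6 ± 2.0 RPKM). RARA then overlapped RARG (76.3 ± 4.1 RPKM). That exchange was not tested. Among PPAR and RXR receptors, for comparison, RXRB stood at 28.0 to 38.97 RPKM and PPARD at 12.6 to 15.6 RPKM over all libraries, so PPARD overlapped NR1D2 and lay above NR3C1. None of the 5 PPAR and RXR genes with a model passed in edgeR or DESeq2, and 0 had an unadjusted p under 0.05 in edgeR.

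Genes that act with the receptors, or are known targets, were read from 13 lists holding 179 genes. Of these 140 had a model and 112 were tested. In edgeR 1 rose and 0 fell past an adjusted p of 0.05. DESeq2 called 4 higher and 3 lower, which is 6.03% of the 116 genes it gave an adjusted p, against 2.91% of all models, and the cause of the gap to edgeR was not tested. At an unadjusted p under 0.05 in edgeR, 12 were higher (10.7%, against 7.93% of all tested models) and 7 lower (6.25%, against 8.91%). The median log2 fold change was 0.03. These shares are near the background in edgeR, and since the lists were chosen with results known, nothing particular to them is read from either tool.

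**Figure D4:**
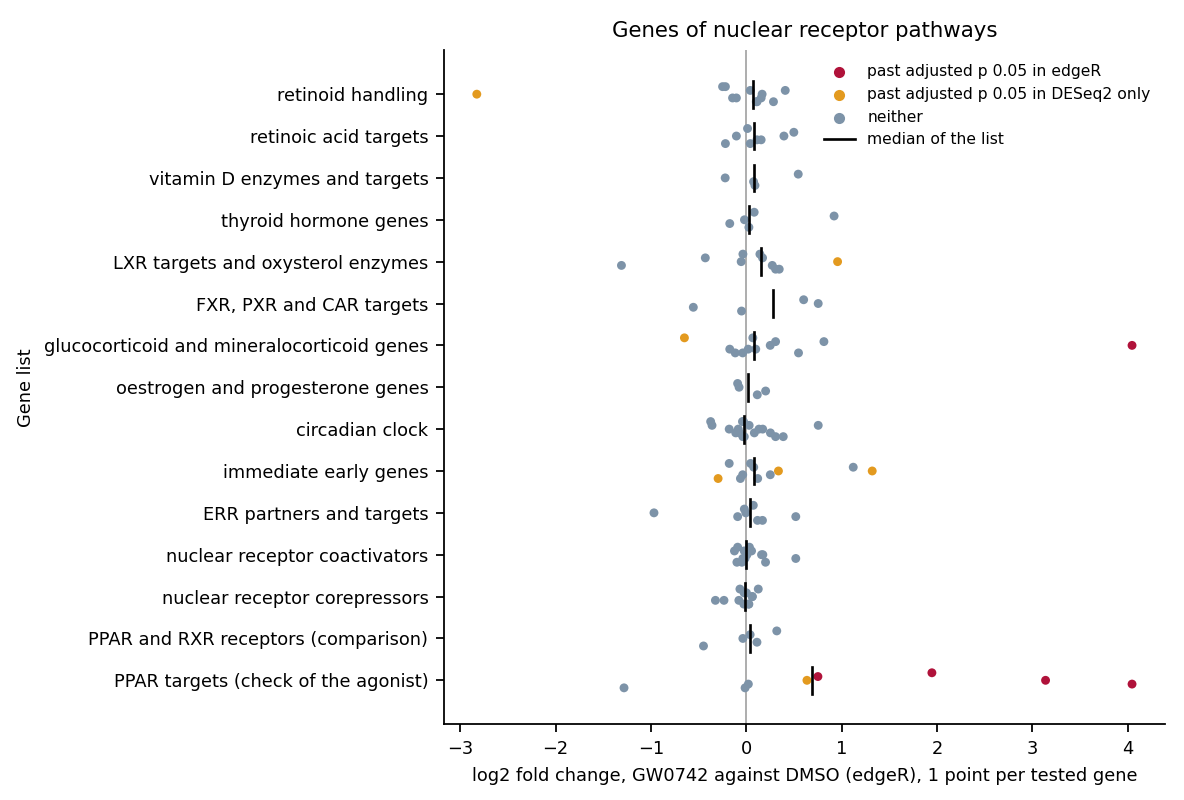
Log2 fold change (edgeR, GW0742 against DMSO) of each tested gene in the 13 pathway lists, in the PPAR and RXR receptors and in PPAR targets, with the median of each list as a black bar. Red points passed an adjusted p of 0.05 in edgeR and orange points in DESeq2 only. The medians of receptor pathway lists run from -0.02 (circadian clock) to 0.28 (FXR, PXR and CAR targets), and single genes lie farther out. The 4 red genes among PPAR targets are ANGPTL4, PDK4, CPT1A and CAT. PDK4 is also red in the glucocorticoid list, and CAT (0.75) lies below APOE (0.96) and EGR1 (1.32) of the pathway lists.

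Retinoid enzymes and binding proteins had 0 of 12 tested genes past the threshold in edgeR, as had retinoic acid targets with 0 of 8. At an unadjusted p under 0.05 the counts were 1 and 0, and DESeq2 called 1 and 0. ALDH1A3, which makes retinoic acid from retinaldehyde, stood at 0.435, 0.418 and 1.198 RPKM with DMSO and 0.134, 0.119 and 0.0499 RPKM with GW0742. The groups did not overlap (log2 -2.83 ± 0.57, edgeR adjusted p = 0.0788). With 106 reads in all, it passed as lower in DESeq2 (adjusted p = 0.0093). CRABP2, which carries retinoic acid to the nucleus, was at 34.1 to 45.2 RPKM with DMSO and 34.5 to 37.3 RPKM with GW0742 (adjusted p = 0.337 in edgeR). The related carrier CRABP1 had a log2 fold change of 0.41 ± 0.22 and the retinoic acid target TGM2, a transglutaminase, 0.40 ± 0.19, neither past the threshold.

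Liver X receptor targets and oxysterol enzymes had 0 of 10 tested genes past the threshold in edgeR, with 3 higher and 2 lower at an unadjusted p under 0.05, where all tested models gave 7.93% and 8.91%. In so short a list these counts are a description. APOE, the apolipoprotein that takes up cellular cholesterol, stood at 9.41, 15.3 and 11.5 RPKM with DMSO and 30.2, 23.8 and 17.5 RPKM with GW0742. All GW0742 libraries were higher (log2 0.96 ± 0.23, edgeR adjusted p = 0.111), and DESeq2 called it (adjusted p = 0.00249). The cholesterol exporters ABCA1 and ABCG1, both textbook LXR targets, had log2 fold changes of opposite sign. ABCA1 stood at 6.51, 4.98 and 6.51 RPKM with DMSO and 7.24, 7.33 and 8.71 RPKM with GW0742 (log2 0.35 ± 0.12, edgeR adjusted p = 0.213). ABCG1, with 58 reads in all, stood at 0.353, 0.393 and 0.398 RPKM and at 0.0613, 0.230 and 0.158 RPKM (log2 -1.31 ± 0.38, adjusted p = 0.151).

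Glucocorticoid and mineralocorticoid genes had 1 of 12 tested genes higher, PDK4, which shuts off pyruvate dehydrogenase. It rose from 0.0592, 0.0959 and 0.0614 RPKM to 0.995, 1.39 and 1.34 RPKM (log2 4.05 ± 0.30, edgeR adjusted p = 0.00151). PDK4 is also a textbook PPAR target and stands in that list too. The HSP90 cochaperone PTGES3, which steadies ligand binding by steroid receptors, was at 45.5, 44.8 and 42.1 RPKM with DMSO and 28.9, 21.3 and 35.6 RPKM with GW0742 (log2 -0.65 ± 0.16, edgeR adjusted p = 0.125). In DESeq2 it passed as lower (adjusted p = 0.00404). FKBP5, a sensitive glucocorticoid target that feeds back on the receptor, was at 10.5, 11.5 and 10.8 RPKM and at 12.8, 14.6 and 12.3 RPKM (log2 0.25 ± 0.10, adjusted p = 0.244). The GW0742 libraries were all higher, and neither tool called it.

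Clock genes had 0 of 18 tested members past the threshold in edgeR or DESeq2 (2 higher and 1 lower at an unadjusted p under 0.05 in edgeR), with a median log2 fold change of -0.02. ARNTL (BMAL1), the activator that REV-ERB receptors repress, stood at 7.36, 6.10 and 7.01 RPKM with DMSO and 7.31, 11.01 and 8.94 RPKM with GW0742 (log2 0.39 ± 0.16, edgeR adjusted p = 0.271). NPAS2, another REV-ERB target that pairs with ARNTL, was lower in all GW0742 libraries (log2 -0.18 ± 0.07, adjusted p = 0.248). PER1, a repressor of the clock and a glucocorticoid target, had a log2 fold change of 0.31 ± 0.13 (adjusted p = 0.273).

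Immediate early genes, among which the NR4A receptors are counted, had 0 of 11 past the threshold in edgeR, with 3 higher and 1 lower at an unadjusted p under 0.05, while DESeq2 called 2 higher and 1 lower. Over all models the shares were 7.93% and 8.91% unadjusted in edgeR, and 2.91% in either direction in DESeq2. The AP-1 subunit JUNB stood at 68.5, 72.9 and 79.9 RPKM with DMSO and 93.3, 96.2 and 95.1 RPKM with GW0742 (log2 0.34 ± 0.07, edgeR adjusted p = 0.0867; DESeq2 adjusted p = 0.00199). EGR1, a zinc finger factor of the serum response, stood at 1.85, 2.33 and 2.05 RPKM and at 4.66, 7.95 and 3.37 RPKM (log2 1.32 ± 0.29, edgeR adjusted p = 0.0961; DESeq2 adjusted p = 0.000654). The stress factor ATF3 was lower in all GW0742 libraries (log2 -0.30 ± 0.07, edgeR adjusted p = 0.107; DESeq2 adjusted p = 0.0259). NR4A2 and NR4A3 had log2 fold changes below 0 and overlapping groups, and whether they differ from JUNB or EGR1 was not tested.

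Vitamin D genes (4 tested), thyroid hormone genes (5), targets of FXR, PXR and CAR (4), oestrogen and progesterone genes (4) and partners and targets of ERR (8) had none past the threshold in edgeR or DESeq2. At an unadjusted p under 0.05 edgeR had 1 vitamin D gene and 1 oestrogen and progesterone gene, both higher, and 0 in the other 3 lists. SPP1, the matrix protein osteopontin and a vitamin D target, was the first of its list by p, at 54.6, 87.4 and 68.7 RPKM with DMSO and 111, 84.2 and 117 RPKM with GW0742 (log2 0.55 ± 0.19, edgeR adjusted p = 0.199). HSD17B4, an oestradiol dehydrogenase that also serves peroxisomal fat oxidation, was higher in all GW0742 libraries (log2 0.20 ± 0.08, adjusted p = 0.259).

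Coactivators, which link bound receptors to the transcription machinery, had 0 of 14 tested genes past the threshold in edgeR, and corepressors, which recruit histone deacetylases, 0 of 12. DESeq2 called none in either list, and at an unadjusted p under 0.05 edgeR had 0 coactivators and 1 corepressor, which was lower. The median log2 fold changes were -0.00 and -0.01. NCOA3 (SRC-3), a coactivator of the p160 family, was higher in all GW0742 libraries (log2 0.17 ± 0.08, edgeR adjusted p = 0.323), and TBL1XR1, a subunit of the NCoR complex, had a log2 fold change of -0.32 ± 0.13 (adjusted p = 0.272) with overlapping groups.

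Markers of other cells also differed between the groups, and their part in the receptor and pathway values was not tested. All 6 tested endothelial markers had log2 fold changes above 0, with a median of 1.36. The DMSO libraries held a summed 63.0 to 88.5 CPM of them and the GW0742 libraries 98.0 to 133 CPM, and DESeq2 called 2 of them. The 6 muscle markers summed to 8466 to 8909 CPM in DMSO libraries against 6422 to 8129 CPM in GW0742 libraries, and while edgeR called none, DESeq2 called 3 lower (ACTA2, CNN1 and SMTN). Among chondrocyte markers 1 of 10 fell, ACAN, the main proteoglycan of cartilage (log2 -0.50 ± 0.06, edgeR adjusted p = 0.0185). DESeq2 called ACAN and also the cartilage collagen COL11A1 lower (adjusted p = 0.00413), as well as the fibroblast marker THY1 (adjusted p = 0.000196), which edgeR did not call. Adipocyte and erythrocyte markers summed to under 1 CPM in every library.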

How the data were processed

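The authors deposited 1 table per library that holds, per the file headers, estimated counts (EstimatedNumReads) and RPKM for every gene model, and a series table that repeats the RPKM. Per the labels' protocols, oligo(dT)-captured mRNA was fragmented, copied with random hexamers and read on an Ion Proton. The build was Sscrofa 10.2, per the submitters' processing notes. Which aligner, counter and annotation were used is not given in the sources used here. Reads of near-identical models may be divided between them in estimated counts.

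Counts were rounded, kept where filterByExpr passed them (by group, minimum count 10), TMM-scaled and tested with edgeR 4.0.16 (quasi-likelihood F-test, R 4.3.3), two-sided, adjusted by Benjamini-Hochberg over all tested models, threshold 0.05. No pair of libraries agreed within sampling noise (chi-square per degree of freedom 4.06 to 14.9 within groups). The script was tested on simulated data. Alternatives used DESeq2 1.42.0 and limma 3.58.1. The receptors, lists and tests were chosen with earlier results of these data known. Values per library are given for receptors of at least 1 RPKM on average, with an unadjusted p under 0.05 or with groups that do not overlap, and in each list for genes past the threshold or else up to 3 with the smallest p. Some genes that this rule or a marker list names are not reported here. Intervals and floors cover counting error and the spread between libraries only.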

Additional observations from a re-analysis of the deposited data

How the results depend on the processing

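Over 15 alternatives 0 of the receptors passed the threshold, with a smallest adjusted p of 0.133 (DESeq2), and 290 of 300 log2 values of 20 receptors kept their direction. The 10 that turned belong to receptors whose groups overlap: ESRRA (0.0022 in limma with a pseudocount of 1 or 0.1, and -0.10 to 0.029 over left-out libraries), NR3C1 (-0.00050 to 0.060), RORA (-0.033 to 0.42), NR1D1 (-0.12 to 0.15) and NR6A1 (-0.38 to 0.31). At an unadjusted p under 0.05, 2 receptors were higher and 2 lower. DESeq2 gave 1 higher, limma gave 1 lower with either pseudocount. With a library left out, 0 to 3 were higher and 1 to 2 lower. The higher count was 0 without DMSO replicate 3, GW0742 replicate 1 or GW0742 replicate 3, with fewer samples in each fit. Pathway genes past the threshold were 1 higher and 0 lower. DESeq2 gave 4 and 3, and leaving out 1 library 1 to 2 higher.

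Over all tested models 26 were higher and 11 lower. DESeq2 gave 198 and 227, edgeR without a filter 13 and 3, limma 5 and 1 with a pseudocount of 1 but 10 and 5 with 0.1, and a left-out library 6 to 54 and 0 to 47. The cause of these gaps was not tested. The first 10 receptors by level were the same by the median over 6 libraries. By CPM, which ignores length, 9 of them stayed among the first 10. The receptor that left was NR1D1, with a model of 414 bases and a mean of 4.36 CPM. Same-numbered libraries did not deviate together (correlations 0.005, -0.032 and -0.103). With 3 libraries per group, these values cannot show whether the numbers mark a pairing. With the replicate number as a block, 0 receptors passed, 1 receptor was higher at an unadjusted p under 0.05, and 10 models were higher and 0 lower in all. Depth limits the 15 receptors too scarce to test.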
